A study of Mus musculus with 18 samples.

Results

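The genes described here encode the proteins of the cytosolic ribosome. They were chosen by symbol: every gene named Rpl or Rps followed by a number and at most 1 letter, with the stalk genes Rplp0, Rplp1 and Rplp2 and with Rpsa, and without pseudogenes. This gave 81 genes of 24421 in each of 2 count tables, 43 of the large subunit, 30 of the small subunit, 3 of the stalk and 5 paralogs (Rpl3l, Rpl10l, Rpl39l, Rps4l and Rps27l). They lie on 19 chromosomes, and 4 of them (Rpl10, Rpl36a, Rpl39 and Rps4x) lie on the X chromosome.

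RNA was sequenced from mouse bone marrow (BM) mesenchymal cells in 18 libraries, in 6 groups of 3, to compare cells with and without Pot1a, a protein that binds the single-stranded end of telomeres. In culture, CD51+/PDGFRα+ cells came from C57BL/6 mice of 4 to 6 months that carried a flox-stop-flox tdTomato reporter and were either Pot1a wild/wild (wt/wt) or Pot1a flox/flox (labelled Δ/Δ). All of these cells, wt/wt included, were exposed for 12 h to Cre gesicles at 10 µL per well, re-sorted as tdTomato+ cells after 48 h and collected at week 1 or week 4. The other 6 libraries were of tdTomato+ BM cells of NG2-cre/loxp-tdTomato mice aged 2 weeks, titled wt/Δ or Δ/Δ. Their genotype field gives POT1a fl/fl for all 6, so the groups rest on the titles. NG2-cre is active in pericytes and other stromal cells and does not mark a single cell type.

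A ribosome is built from 2 subunits, and most cytosolic ribosomal proteins are normally present once in it. Their messenger RNAs begin with a run of pyrimidines, the 5' terminal oligopyrimidine (TOP) motif, through which mTOR and LARP1 set how much of them is translated. The genes are expressed in every cell, most strongly in growing cells, and their RNAs are among the most abundant in a cell. Mammalian genomes also hold many processed copies of these genes, and a few expressed paralogs whose proteins can take the place of the usual one.

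The start of transcription of a few members is shown because the TOP motif would lie there, and because the results below turn on these genes. Of the 81 genes, 60 had a RefSeq promoter (GRCm38.p6). Each window holds 10 bases before and 20 bases from the annotated start, 30 in all, and capitals mark its longest run of C and T. Rps6 (chr4:86857348-86857377, minus strand) and Rpl12 (chr2:32961702-32961731, plus strand) fell over time in culture in both genotypes. Rplp0 (chr5:115559457-115559486, plus strand) and Rpl5 (chr5:107900518-107900547, plus strand) were lower at week 4 in the cells labelled Δ/Δ. Rpl39 (chrX:37085203-37085232, minus strand) and its paralog Rpl39l (chr16:10170218-10170247, plus strand) are shown side by side because their levels are compared below.
Rps6: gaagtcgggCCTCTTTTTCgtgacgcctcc
Rpl12: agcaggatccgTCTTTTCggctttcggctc
Rplp0: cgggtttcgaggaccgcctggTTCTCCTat
Rpl5: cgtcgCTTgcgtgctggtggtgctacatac
Rpl39: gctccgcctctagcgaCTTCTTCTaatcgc
Rpl39l: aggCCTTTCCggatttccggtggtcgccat

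The longest run was 10 bases in Rps6, 8 in Rpl39, 7 in Rpl12, Rplp0 and Rpl39l, and 3 in Rpl5. These lengths depend on which start is annotated: in Rpl34 the run was 6 bases at an annotated start and 13 at another. A short run therefore cannot be read as lack of a TOP motif. A run of at least 7 C or T was found in this window in 32 of the 60 genes (53.3%) and in 20.5% of 27025 genes with a promoter of the same length. CTTTC, read on the coding strand alone, was found in 15 of the 60 (25%) and in 4.43% of all. CCGGAAG, a sequence that ETS factors can bind, was searched on both strands of the 300 bases from 250 before to 50 after the start, and was found in 25 of the 60 (41.7%) against 9.93% of all. These matches overlap, since a run of C and T can hold CTTTC, and the reverse complement of CCGGAAG begins with such a run. A match describes the letters only, and a gene counted once if any of its annotated starts had it.

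The cultured libraries held 12807832 to 90717232 counts and the sorted libraries 28918757 to 49992698. Replicates of a group differed by far more than counting error (chi-squared per degree of freedom 10.8 to 376), so none was counted as a copy of another. Stromal markers were high in every library (8 genes summing to 8871 to 37966 CPM, counts scaled to a common library size by TMM). In the sorted libraries, markers of other cells were present too: 8 myeloid genes summed to 1515 to 3221 CPM, 7 endothelial genes to 1094 to 1880 CPM, 7 erythroid genes to 163 to 316 CPM and 7 B lineage genes to 111 to 242 CPM. Of the 7 erythroid genes, 3 had no counts in any wt/Δ library and 4 had none in any Δ/Δ library. The 8 megakaryocyte markers summed to 1689 CPM in wt/Δ replicate 2 and 847 CPM in Δ/Δ replicate 3 and to 17.6 to 27.3 CPM in the other 4. In culture the erythroid and B lineage markers summed to under 1 CPM, and the megakaryocyte, myeloid and endothelial markers to at most 5.21, 19.8 and 6.82 CPM. Counts of whole Pot1a were not lower in the cultured cells labelled Δ/Δ: 47.9, 46.3 and 42.8 CPM at week 4 against 37.8, 33.7 and 33.2 CPM in wt/wt (log2 fold change 0.39, SE 0.11, adjusted p = 0.030, edgeR). These counts include exons outside any deleted part, so they do not check the deletion, and directions below are between libraries as labelled. The paper itself reports a significant reduction of Pot1a mRNA in cultured cells after the deletion, and loss of the flox band.

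Together the 81 genes held 0.310% to 1.00% of the counts of a library, and the 77 mitochondrial ribosomal protein genes 0.187% to 0.371%. Reads that fit several places may have been lost in counting, which was not tested. Shares are therefore of the counts and are not read as the part of the cells' RNA. The share of the 81 genes was 0.773%, 0.491% and 0.491% in wt/wt and 0.557%, 0.418% and 0.480% in Δ/Δ at week 1. At week 4 it was 0.380%, 0.454% and 0.391% in wt/wt and 0.310%, 0.347% and 0.396% in Δ/Δ. In sorted cells it was 0.834%, 1.00% and 0.546% in wt/Δ and 0.514%, 0.740% and 0.663% in Δ/Δ. By mean, sorted wt/Δ was highest, at 0.794% ± 0.231 (SD, n = 3), then sorted Δ/Δ at 0.639% ± 0.115, wt/wt week 1 at 0.585% ± 0.163, Δ/Δ week 1 at 0.485% ± 0.0694, wt/wt week 4 at 0.408% ± 0.0397 and Δ/Δ week 4 at 0.351% ± 0.0427. Each group overlapped its neighbours in this order, while week 1 and week 4 did not overlap in either genotype. The 2 tables were made separately, so levels in cultured and sorted cells are set side by side with no test.

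**Figure D1:**
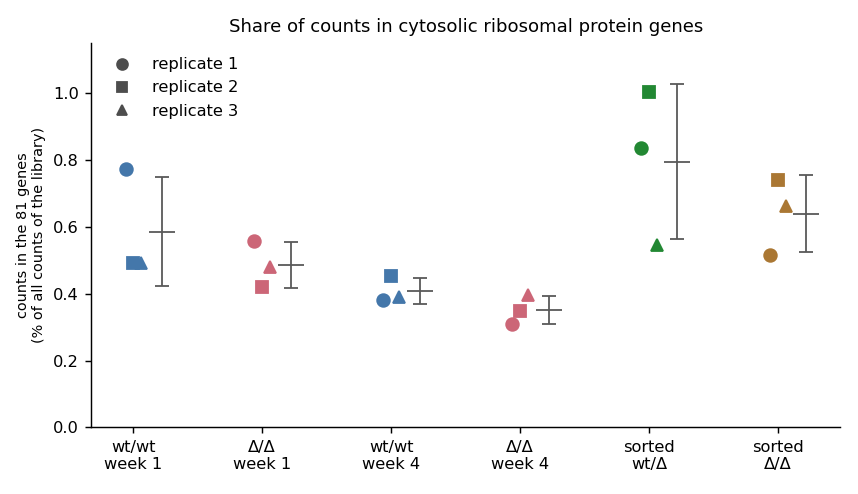
Share of all counts of a library (%) that fell in the 81 cytosolic ribosomal protein genes, for each library (symbols mark the replicate number) with the group mean and SD beside it (n = 3). The week 4 libraries lie at 0.310% to 0.454%, below all week 1 libraries of the same genotype, and wt/wt week 1 replicate 1 stands apart at 0.773%.

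Members moved together from library to library. In culture, wt/wt week 1 replicate 1 had the highest CPM of 75 of the 79 members with counts, and Δ/Δ week 4 replicate 1 had the lowest of 48. In sorted cells, wt/Δ replicate 2 was highest for 61 members, and the lowest values were in Δ/Δ replicate 1 for 42 and in wt/Δ replicate 3 for 36. The median coefficient of variation among replicates was 29.1% over the members in wt/wt week 1 and 35.0% in sorted wt/Δ, against 10.2% and 23.2% over the 10754 genes of at least 5 mean CPM. It was 18.2% in Δ/Δ week 1, 15.8% in wt/wt week 4, 14.8% in Δ/Δ week 4 and 20.5% in sorted Δ/Δ, against 8.21%, 16.3%, 12.7% and 12.1% over those genes. The median of the members was above that of these genes in 5 of the 6 groups, the exception being wt/wt week 4. What sets wt/wt week 1 replicate 1 apart was not tested.

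**Figure D2:**
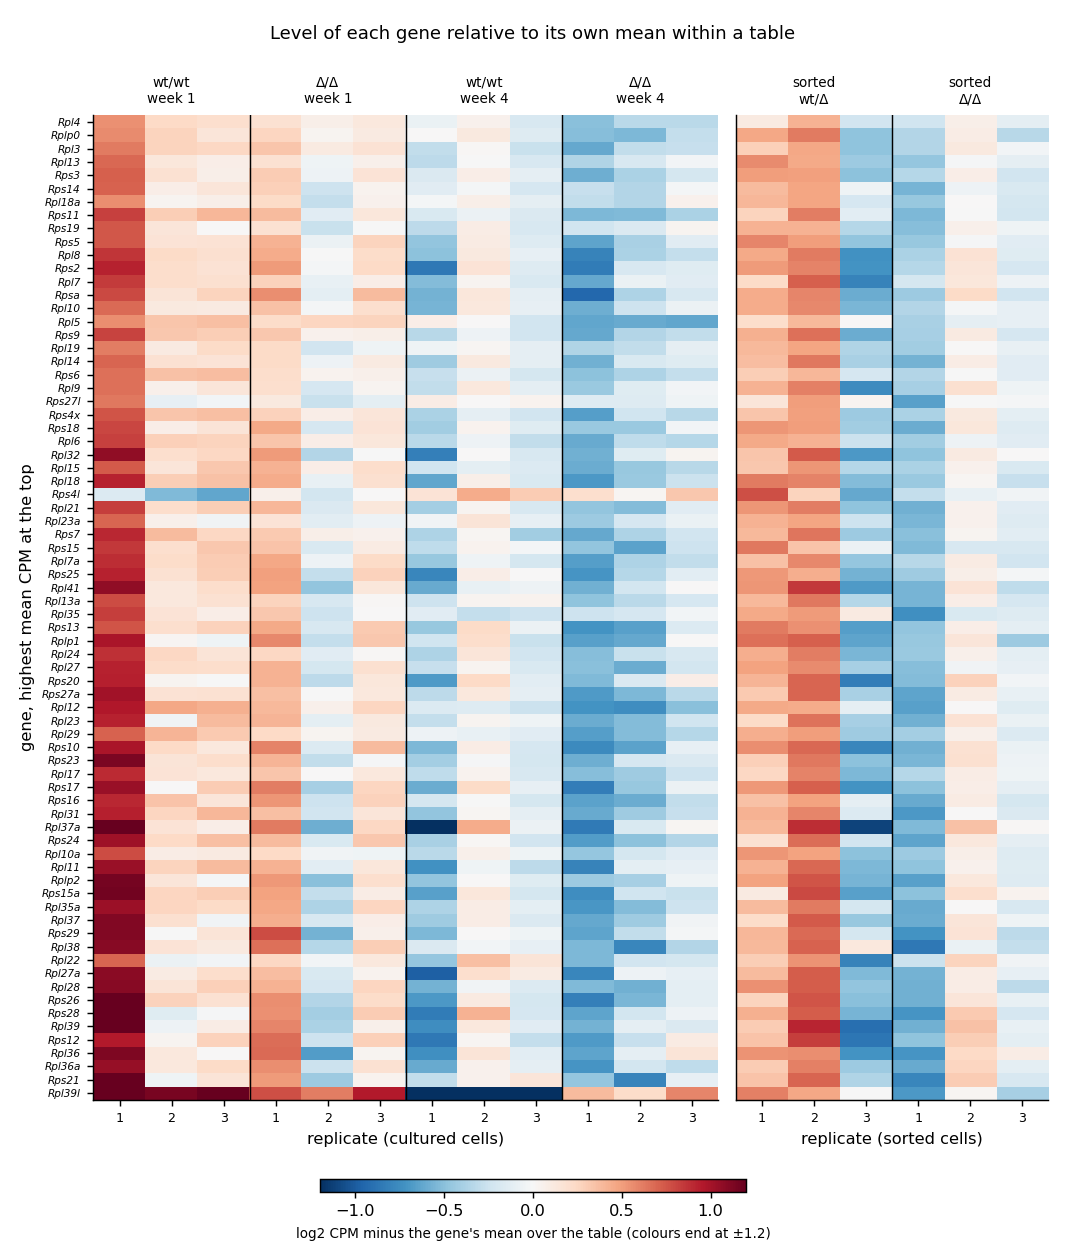
Level of members of at least 5 mean CPM (75 less 1 that is not shown) in each library, as log2 CPM minus the mean of the same gene over the 12 cultured (left) or 6 sorted libraries (right); rows run from the highest to the lowest mean CPM, and red is above and blue below the mean. wt/wt week 1 replicate 1 is red in nearly every row, while Rps4l and Rpl39l depart from the common pattern.

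Of the 81 genes, 75 had a mean of at least 5 CPM over the 18 libraries and 19 a mean over 100 CPM. By mean CPM the 5 highest, which held 24.8% of the members' CPM, were Rpl4 at 386 CPM, Rplp0 at 348, Rpl3 at 224, Rpl13 at 200 and Rps3 at 196. Per kilobase of transcript, the scale on which genes can be compared, Rpl13 was at 257 CPM, Rplp0 at 256, Rpl4 at 251 and Rpl3 at 166. Rpl3 lies near the peptidyl transferase centre, and Rplp0 is the base on which the acidic stalk proteins Rplp1 and Rplp2 sit. Of the 75, 71 had their highest group mean in sorted wt/Δ, and 67 had their lowest in Δ/Δ and 7 in wt/wt at week 4. The cultured and sorted tables were scaled separately and no share over all genes was taken, so these counts are description only.

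Some members had almost no counts. Rpl26 and Rpl10l were at 0 in every library, and Rpl3l, the striated muscle paralog of Rpl3, reached at most 0.623 CPM. Rpl30 averaged 0.711 CPM, Rps27 0.559 CPM and Rpl34 2.24 CPM, although each of these encodes a protein of the ordinary ribosome. Near copies also had rows of their own: Rps27rt and Rpl34-ps1 were at 0 throughout, Rpl37rt averaged 0.327 CPM and Rpl14-ps1 1.46 CPM. How reads that fit several places were counted is not given in the sources used here. Members with near-identical processed copies can lose reads in counting. Levels of single members and the share of counts of the whole family are therefore uncertain, and low levels of these genes cannot be read as low expression. Rpl10l, Rpl26 and Rpl3l did not pass the filter on low counts in culture, which left 78 members, and Rpl10l and Rpl26 did not in sorted cells, which left 79.

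The first comparison asks how wt/wt cells changed between week 1 and week 4. Ribosomal protein genes fell: of 78 tested, 34 were lower at week 4 and 1, Rps4l, was higher (edgeR's quasi-likelihood test, Benjamini-Hochberg adjusted p under 0.05). Over all 13169 genes tested, 16.1% were called lower and 17.9% higher. The median log2 fold change was -0.63 over the members and -0.01 over all genes, and 77 of the 78 members were below 0. In 52 members every week 4 value lay under every week 1 value, which 21.3% of all genes also showed. Of the 46 large subunit and stalk genes and paralogs named Rpl 22 were lower, and of the 32 named Rps 12.

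Rpl39l fell furthest. It encodes a paralog of Rpl39, a small protein that lines the exit tunnel of the large subunit, and in mice it is best known from male germ cells. Rpl39l was at 11.3, 8.39 and 9.15 CPM at week 1 and at 0.448, 1.30 and 0.532 CPM at week 4, and these ranges lie far apart. Its log2 fold change was -3.62 (SE 0.30, adjusted p = 2.3e-06). Rpl39 itself was at 27.1, 10.5 and 11.7 CPM at week 1 and 6.58, 12.0 and 10.0 CPM at week 4 (log2 fold change -0.78, SE 0.36, adjusted p = 0.11). For Rpl39 the ranges overlapped.

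Small subunit and 5S-associated genes were also among the members that fell. Rps6, the small subunit protein that S6 kinase phosphorylates, was at 142, 115 and 117 CPM at week 1 and 74.3, 85.9 and 78.1 CPM at week 4, without overlap. Its log2 fold change was -0.65 (SE 0.11, adjusted p = 7.5e-04). Rpl5, which binds the 5S ribosomal RNA together with Rpl11 and with it can bind MDM2, went from 150, 129 and 131 CPM to 108, 102 and 87.2 CPM (log2 fold change -0.47, SE 0.10, adjusted p = 0.0035). Rpl11 went from 46.0, 26.9 and 29.2 CPM to 13.5, 21.6 and 18 CPM (log2 fold change -0.94, SE 0.26, adjusted p = 0.013). Neither gene overlapped between the weeks.

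Other members with large or well measured falls were Rpl12 (log2 fold change -0.83, SE 0.15, adjusted p = 0.0011), which lies at the base of the stalk, Rps4x (-0.73, SE 0.14, adjusted p = 0.0019), an X-linked gene, and Rpl3 (-0.57, adjusted p = 0.0077). Rps26, which lies where messenger RNA leaves the small subunit, was at -0.95 (SE 0.34, adjusted p = 0.0495) and Rpl32 at -0.85 (SE 0.29, adjusted p = 0.039). Both calls were lost without wt/wt week 1 replicate 1, where they were at -0.45 and -0.52. Rpl13 (-0.49), Rpl5 and Rpl4 (-0.41, adjusted p = 0.016) changed least among the members called lower, and the calls of Rpl13 and Rpl4 were lost without wt/wt week 1 replicate 1 (adjusted p = 0.15 and 0.069).

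Rps4l rose against the rest. It is an autosomal paralog of the X-linked Rps4x, and it was at 42.9, 33.4 and 31.2 CPM at week 1 and 54.0, 65.4 and 59.5 CPM at week 4, without overlap. Its log2 fold change was 0.73 (SE 0.14, adjusted p = 0.0017). Rps4x went the other way, from 135, 101 and 103 CPM to 61.4, 74.3 and 68.0 CPM. Rps27l, a p53-responsive paralog of Rps27, was at 127, 76.5 and 80.1 CPM and then 87.2, 82.4 and 84.6 CPM (log2 fold change -0.16, interval -0.53 to 0.21, adjusted p = 0.51).

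How many members were called in wt/wt over time depended on the libraries and on the model. The share of all genes called in these other fits is not given, so their counts are description only. Without wt/wt week 1 replicate 1, 12 members were lower and the median was -0.34, and without wt/wt week 4 replicate 3 or 1 the counts were 17 and 19. Same-numbered wt/wt libraries of the 2 weeks deviated together (correlations 0.24, 0.41 and 0.37), and with the replicate number as a block and only these 6 libraries 13 members were lower and 1 higher. With that block Rps26, Rpl32 and Rpl11 were no longer called (adjusted p = 0.16, 0.13 and 0.064), and Rpl11 was not called without wt/wt week 1 replicate 1 either (log2 fold change -0.66, adjusted p = 0.062). Proliferation markers moved with time as well: 8 such genes summed to 756 to 790 CPM in wt/wt at week 1 and 144 to 198 CPM at week 4, and to 712 to 751 CPM and 179 to 239 CPM in Δ/Δ. Their part in the fall of ribosomal protein genes was not tested.

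**Figure D3:**
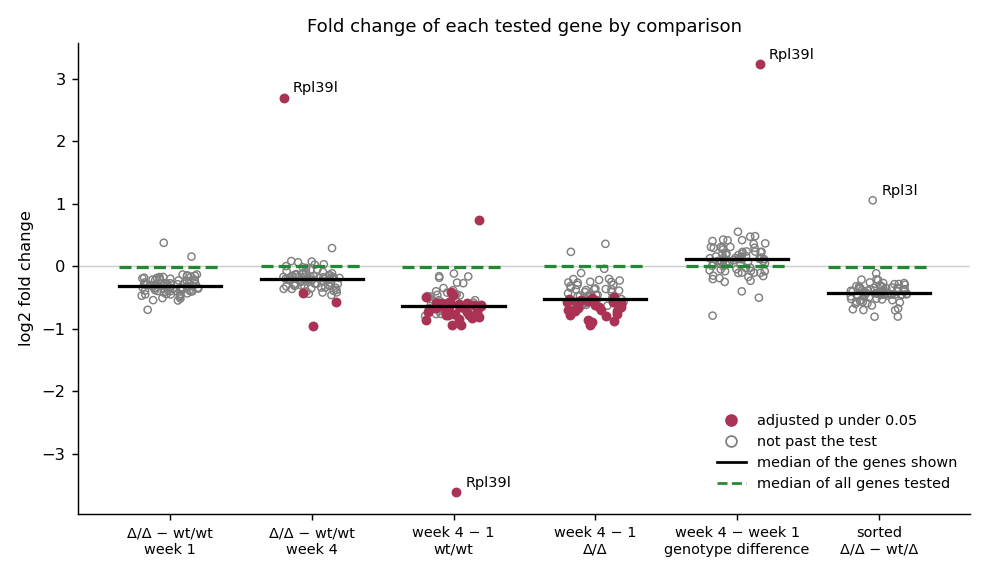
log2 fold change of each tested member (78 in culture, 79 in sorted cells) in each of 6 comparisons; filled points passed the test (adjusted p under 0.05, edgeR), the solid line is the median of the members and the dashed line that of all genes tested. Over time in culture the members centre on -0.63 and -0.53, and Rpl39l stands apart in 3 of the comparisons.

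The second comparison asks the same of the cells labelled Δ/Δ. Here 29 of 78 members were lower at week 4 and none was higher (edgeR). DESeq2 called 34 members lower and 0 higher, with 4868 of 13169 genes called in either direction. In edgeR, 16.3% of all genes were called lower and 18.8% higher. The median log2 fold change was -0.53 over members against 0.00 over all genes, 76 members were below 0, and 37 members had an unadjusted p under 0.05, all of them lower, as had 44.4% of all genes in either direction. In 38 members the weeks did not overlap and week 4 was lower, which 25.3% of all genes also showed. Of the 78 members, 20 were called lower in both genotypes, 14 in wt/wt only, 9 in Δ/Δ only and 35 in neither, but a call in 1 genotype does not show a difference between them, and the test of that difference is given further on.

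Rpl5 had the lowest adjusted p of the members in this comparison. It was at 119, 122 and 122 CPM at week 1 and 66.3, 67.1 and 66.3 CPM at week 4 (log2 fold change -0.86, SE 0.10, adjusted p = 4.1e-05). Rpl34 showed the largest fall, -0.95 (SE 0.24, adjusted p = 0.0091), but from 1.81, 1.99 and 2.13 CPM to 1.27, 0.790 and 1.01 CPM, where few reads were counted. Rpl12 fell by 0.89 on the log2 scale (SE 0.15, adjusted p = 6.6e-04), from 46.8, 37.2 and 42.6 CPM to 21.7, 21.2 and 25.2 CPM. Both groups were apart in each of these 3 genes.

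Among the stalk and its neighbours, Rplp0 was at 387, 332 and 350 CPM at week 1 and 228, 223 and 265 CPM at week 4 (log2 fold change -0.58, SE 0.13, adjusted p = 0.0043). Rplp1 and Rplp2, which Rplp0 anchors, were at -0.63 (adjusted p = 0.12) and -0.41 (adjusted p = 0.33), and neither passed the test. Rpsa, the small subunit protein also known as the laminin receptor, was at -0.77 (SE 0.25, adjusted p = 0.029), a call that was lost in 4 of the 18 alternatives. Rps6 (-0.48, adjusted p = 0.0051) and Rps3 (-0.52, adjusted p = 0.030) changed less, and the call of Rps3 was lost in 4 alternatives too.

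In the labelled Δ/Δ cells Rpl39l was at 6.53, 5.86 and 7.36 CPM at week 1 and 4.97, 4.45 and 5.71 CPM at week 4 (log2 fold change -0.38, SE 0.24, adjusted p = 0.25). Rps4l was at 50.1, 41.3 and 48.3 CPM and then 55.3, 48.7 and 60.0 CPM (0.23, adjusted p = 0.23). Of the X-linked genes, Rps4x was lower at week 4 (-0.57, SE 0.14, adjusted p = 0.0084). Rpl10, which completes the large subunit last, was at -0.47 (adjusted p = 0.093), Rpl36a at -0.59 (adjusted p = 0.12) and Rpl39 at -0.41 (adjusted p = 0.40). In wt/wt these 3 were at -0.48 (adjusted p = 0.091), -0.72 (adjusted p = 0.063) and -0.78. The number called in Δ/Δ was 12 without week 1 replicate 1 or without week 4 replicate 1, 14 without week 1 replicate 3 and 16 without week 4 replicate 2. These counts too stand without the share of all genes called in the same fits.

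The third comparison is between genotypes at week 4. Only 4 of 78 members passed the test: Rpl39l was higher in the cells labelled Δ/Δ, and Rpl34, Rpl5 and Rplp0 were lower. Over all genes 9.2% were called higher and 6.46% lower, so the share of members called was under the background in both directions. The median log2 fold change was -0.20 over members against 0.00 over all genes, and 70 of 78 were below 0. In 15 members Δ/Δ lay under wt/wt without overlap, which 11.8% of all genes also showed.

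Rpl39l, at 0.448, 1.30 and 0.532 CPM in wt/wt and 4.97, 4.45 and 5.71 CPM in Δ/Δ, was 6.48-fold higher in the cells labelled Δ/Δ. Its log2 fold change was 2.70 (SE 0.30, interval 2.04 to 3.35, adjusted p = 5.3e-05). The gene is not tested where at least 10 counts are required in every library, since its lowest library held 6. With 3 libraries against 3 an exact permutation test on this gene alone cannot go below p = 0.10, the value it gave (two-sided). Rpl39 was at 6.58, 12.0 and 10.0 CPM against 7.43, 10.2 and 9.71 CPM (log2 fold change -0.08, interval -0.85 to 0.70).

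Rpl5 was at 108, 102 and 87.2 CPM in wt/wt and 66.3, 67.1 and 66.3 CPM in Δ/Δ, without overlap (log2 fold change -0.57, SE 0.10, adjusted p = 0.0018). It was called in all 18 alternatives, between -0.51 and -0.66 when single libraries were left out. Its partner Rpl11 was at 13.5, 21.6 and 18 CPM against 12.9, 20.7 and 20.9 CPM (0.03, interval -0.52 to 0.59). Rplp0 was at 324, 351 and 291 CPM against 228, 223 and 265 CPM (-0.43, SE 0.13, adjusted p = 0.041), a call that was lost in 10 of 18 alternatives. Rpl34 (-0.95, SE 0.24, adjusted p = 0.018) was at 2.76, 1.79 and 1.6 CPM against 1.27, 0.790 and 1.01 CPM, and its call was lost in 4.

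Members just past these were not called. Rpl12 was at 31.8, 32.0 and 29.9 CPM in wt/wt and 21.7, 21.2 and 25.2 CPM in Δ/Δ, also without overlap, with a log2 fold change of -0.46 (SE 0.15, adjusted p = 0.061). Rpl4 was at -0.31 (adjusted p = 0.097). Rps19, whose loss of 1 copy causes Diamond-Blackfan anaemia in humans, was at 74.4, 98.8 and 81.2 CPM against 78.4, 82.1 and 94.6 CPM (0.00, interval -0.41 to 0.42). Rps27l was at -0.17 (interval -0.54 to 0.21) and Rpl30, at under 1 CPM, at 0.29 (adjusted p = 0.77).

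**Figure D4:**
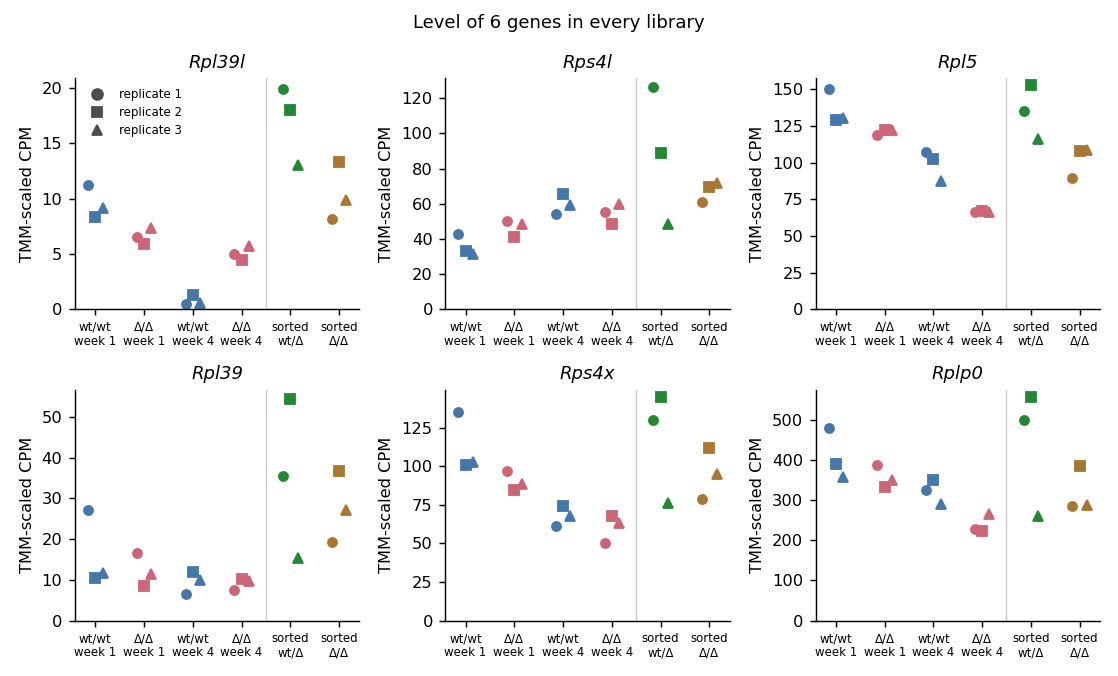
TMM-scaled CPM of 6 members in every library (symbols mark the replicate number; each axis starts at 0; the grey line parts cultured from sorted cells). Rpl39l is at 0.448 to 1.30 CPM in wt/wt week 4 and at 4.45 CPM or more in every other library, and its paralog Rpl39 shows no such gap.

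At week 1 no member differed between the genotypes in edgeR's test, and none did in DESeq2, which called 453 genes. Of all genes 0.752% were called higher and 0.266% lower by edgeR. An unadjusted p under 0.05 was found for 10 members in edgeR, 9 of them lower in the cells labelled Δ/Δ, and for 11 in DESeq2, where edgeR gave such a p for 11.9% of all genes. The median log2 fold change was -0.32 over members and 0.00 over all genes, with 76 of 78 members below 0, and 7 members lay lower without overlap, against 10.8% of all genes. Rps6 had a log2 fold change of -0.36 (SE 0.11, adjusted p = 0.17), at 142, 115 and 117 CPM in wt/wt and 104, 93.0 and 93.9 CPM in Δ/Δ.

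Without wt/wt replicate 1 the median at week 1 was -0.04, and without Δ/Δ replicate 2 it was -0.20. The members with the most extreme values were Rps27 at -0.69 and Rps26 at -0.55 (adjusted p = 0.65 and 0.61), and Rps4l at 0.38 and Rpl30 at 0.16 (adjusted p = 0.29 and 0.96). Rpl39l was at 11.3, 8.39 and 9.15 CPM in wt/wt and 6.53, 5.86 and 7.36 CPM in Δ/Δ, so that the groups did not overlap and the direction was opposite to that at week 4 (-0.54, SE 0.24, adjusted p = 0.40).

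Whether the genotype difference changed between the weeks was tested as an interaction. Rpl39l alone of 78 members passed, at 3.24 (SE 0.39, interval 2.39 to 4.08, adjusted p = 2.6e-04). Of all genes 4.08% were called higher and 3.08% lower in this test, and DESeq2 also called 1 member, among 1276 genes called. Unadjusted, 4 members had a p under 0.05, and so did 18.4% of all genes. Besides Rpl39l these were Rpl34 at -0.79 (adjusted p = 0.22), Rps4l at -0.50 (adjusted p = 0.19) and Rpl5 at -0.40 (adjusted p = 0.13). After Rpl39l the highest value was that of Rpl32, 0.55 (adjusted p = 0.57). The median over members was 0.11, and it was -0.17 without wt/wt week 1 replicate 1, so the members as a group show no fixed direction here.

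In sorted cells, no member passed edgeR's test between Δ/Δ and wt/Δ, and 0% of the 14605 genes tested were called higher and 0% lower. DESeq2 called 463 genes, none of them a member (4 of 79 members had no adjusted p in it). An unadjusted p under 0.05 was found for 7 members in edgeR, all lower, and for 9 in DESeq2, against 12.3% and 14.1% of all genes. The median log2 fold change was -0.43 over members and -0.01 over all genes, 78 of 79 members were below 0, and 9 were lower without overlap, against 11.1% of all genes. In these bulk samples fewer cells of a type and less RNA per cell cannot be told apart.

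Rpl38, which in mice is needed for translation of Hox messages, was at 56.0, 70.0 and 46.7 CPM in wt/Δ and 23.6, 40.4 and 35.0 CPM in Δ/Δ, without overlap (log2 fold change -0.80, SE 0.25, adjusted p = 0.28). Rpl39l was at 19.9, 18 and 13.0 CPM against 8.13, 13.3 and 9.91 CPM, which overlap (-0.70, SE 0.27, adjusted p = 0.36). Rpl5 was at 135, 153 and 116 CPM against 89.3, 108 and 109 CPM, without overlap (-0.40, SE 0.17, adjusted p = 0.40). Rplp0 was at 500, 558 and 260 CPM against 286, 385 and 288 CPM (-0.46, interval -1.15 to 0.23). Rpl30 at -0.81 and Rpl3l at 1.06 were the most extreme, both at under 2 CPM. Rpl22, at -0.11 (adjusted p = 0.93), had the value nearest to 0.

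In sorted cells the fold changes were also set beside transcript length. Members have short transcripts, with a median of 833 bases against 2200 over all genes. Over 14508 genes the log2 fold change was higher for longer transcripts (Spearman's rho 0.40, across genes, which share libraries and are not replicates), and over the 79 members it was 0.29. With a trend on transcript length taken out of each library, the median of the members was -0.07 and that of all genes -0.10. The trend was fitted over all genes, members included, so it would also take out a change shared by short transcripts. Whether length set the shift was not tested. In culture rho over all genes was 0.15 and 0.02 for genotype at weeks 1 and 4 and -0.09 and -0.13 for time, and with the length trend taken out the members' median over time was -0.59 in wt/wt and -0.61 in Δ/Δ.

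Single libraries moved the sorted median too. Without wt/Δ replicate 2 it was -0.22 and without wt/Δ replicate 3 it was -0.68, when 65 members and 22.3% of all genes had an unadjusted p under 0.05 and still no member passed the adjusted test. Without the libraries rich in megakaryocyte markers, wt/Δ replicate 2 and Δ/Δ replicate 3, it was -0.22 with no member called. Megakaryocyte markers were at 27.1, 1689 and 17.6 CPM in wt/Δ, in which the share of counts in ribosomal protein genes was 0.834%, 1.00% and 0.546%. In Δ/Δ they were at 27.3, 21.8 and 847 CPM, with shares of 0.514%, 0.740% and 0.663%. Endothelial markers, at 1137, 1094 and 1748 CPM in wt/Δ and 1880, 1736 and 1860 CPM in Δ/Δ, overlapped between the groups. The part of these cells in the result was not tested otherwise.

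**Figure D5:**
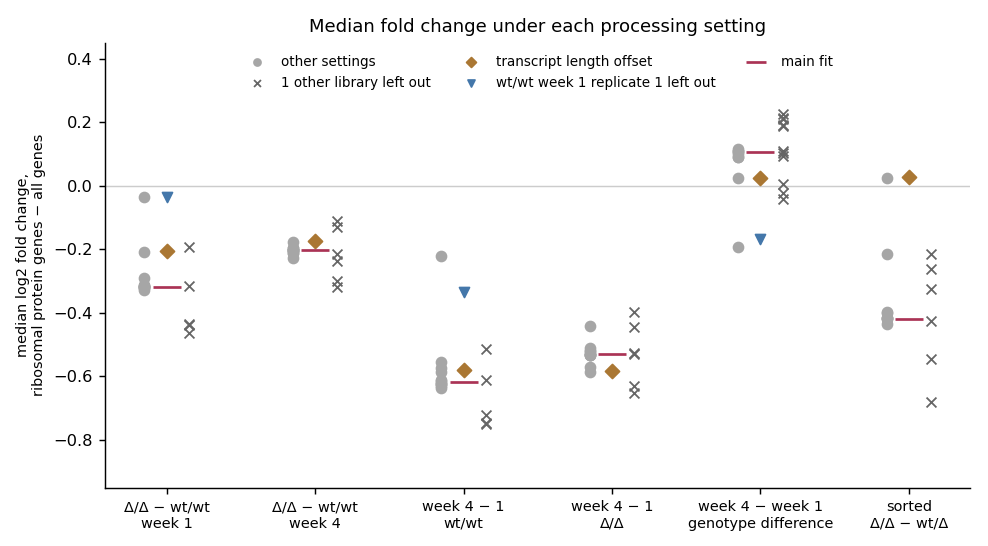
Median log2 fold change of the members minus that of all genes, in each comparison and under every processing setting run; the long dash is the fit reported in the text. The 2 comparisons over time stay below -0.2 under every setting, while the week 1 difference is -0.04 without wt/wt week 1 replicate 1 and the sorted difference is 0.03 with a transcript length offset.

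Other ribosomal protein genes fell outside the naming rule. Of 7 such genes, none was called higher in any comparison, 2 were lower over time in wt/wt (16.1% of all genes), 2 over time in Δ/Δ (16.3%) and 1 between genotypes at week 4 (6.46%). Rack1, listed as Gnb2l1, is a scaffold on the small subunit and was at 195, 187 and 172 CPM in wt/wt and 130, 122 and 136 CPM in Δ/Δ at week 4 (log2 fold change -0.51, SE 0.10, adjusted p = 0.0030). Over time it was at -0.63 in wt/wt (adjusted p = 3.4e-04) and -1.02 in Δ/Δ (adjusted p = 9.2e-06), with Rps3a1 (-0.70, adjusted p = 0.021) also lower in wt/wt and Rpl36al (-0.58, adjusted p = 0.035) in Δ/Δ. Fau, which encodes a ribosomal protein fused to a ubiquitin-like protein, was at -0.46 over time in wt/wt (adjusted p = 0.078), and Rpl22l1 at -0.52 (adjusted p = 0.11).

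Genes that act with ribosomal proteins were counted over time in the same way, beside 16.1% of all genes called lower and 17.9% higher in wt/wt and 16.3% and 18.8% in Δ/Δ. Of 17 other known TOP transcripts, 10 were lower in wt/wt and 9 in Δ/Δ, led by Hnrnpa1 (-1.49 and -1.55) and with Npm1 (-1.0) in wt/wt and Ipo5 (-1.15) in Δ/Δ. Of 9 elongation factors 4 were lower in wt/wt and 5 in Δ/Δ, among them Eef1g (-0.61 and -0.77), a subunit of the eEF1 complex, with Eef1d (-0.57) in wt/wt and Eif5a (-0.84) in Δ/Δ. Of 36 initiation factors 10 were lower in wt/wt and 15 in Δ/Δ, among them Eif4g1 (-0.62 and -0.84), the scaffold of the cap-binding complex, with Eif4a1 (-0.63) in wt/wt and Eif4b (-0.62) in Δ/Δ, while Eif4a2, a relative of Eif4a1, was higher in Δ/Δ (0.69). Of 77 mitochondrial ribosomal protein genes 3 were lower in wt/wt and 6 in Δ/Δ, with 1 higher in each, with medians of -0.09 and -0.07, Mrpl3 (-0.46) and Mrps22 (-0.43) lower and Mrpl49 (0.46) higher in wt/wt, and Mrpl12 (-0.49) and Mrps22 (-0.47) lower in Δ/Δ. In sorted cells all 77 of these were below 0 (median -0.56) with none called (edgeR).

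Genes of ribosome assembly were counted in the same way between genotypes at week 4, where 6.46% of all genes were called lower and 9.2% higher. Of 25 genes of RNA polymerase I and rRNA processing 12 were lower in the cells labelled Δ/Δ and none higher (median -0.45), led by Nop56 (-0.88, SE 0.22, adjusted p = 0.015), a core protein of box C/D particles, and Dkc1 (-0.85, SE 0.14, adjusted p = 8.8e-04), the pseudouridine synthase of box H/ACA particles. Over time, where 16.1% of all genes were lower in wt/wt and 16.3% in Δ/Δ, 8 were lower in wt/wt, led by Fbl (-1.08) and Gar1 (-1.03), and 16 in Δ/Δ, led by Gar1 (-1.19) and Dkc1 (-1.17). Of 19 import and assembly chaperones 7 were lower in Δ/Δ at week 4, led by Grwd1 (-0.75) and Nle1 (-0.65). Over time 3 were lower in wt/wt, Ltv1 (-0.35) and Tsr1 (-0.34) among them, and in Δ/Δ 8 were lower, led by Nle1 (-1.07) and Grwd1 (-0.83), and 1 was higher, Sbds (0.70). Whether these lists differed from the ribosomal protein genes was not tested.

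The initiation and elongation factors at week 4, beside the same 6.46% lower and 9.2% higher of all genes, gave few calls between genotypes: Eif3c (-0.40) and Eif3a (-0.29) were lower and Eif4a2 (0.51) higher, and 3 genes of the elongation list were lower, among them Eif5a (-0.61) and Eef2k (-0.48), the kinase of elongation factor eEF2. Of 21 genes of mTOR and TOP translation control 3 were higher and 1 lower at week 4 in Δ/Δ. Deptor, an inhibitor of mTOR, was higher (1.56, SE 0.13, adjusted p = 4.7e-06), as was Rictor (0.45), a subunit of mTOR complex 2, while Rragd (-1.13), a Rag GTPase, was lower. Over time Deptor fell by 1.91 on the log2 scale in wt/wt, where Rragd (0.51) and Sesn2 (0.65) rose, and in Δ/Δ Larp1 (-0.82) was lower and Sesn1 (0.69) and Rictor (0.29) were higher. Besides Rpl39l, the interaction was called for Deptor (1.79), for Eif3c (-0.65) and for Mrps6 (1.44), a mitochondrial small subunit gene that was higher in Δ/Δ at week 4 (1.36, SE 0.12, adjusted p = 9.6e-06), where Mrps18b (-0.41) was lower.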

How the data were processed

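Libraries were made with SMART-Seq v4 and Nextera XT, which keep no strand. From the submitters' processing notes, the authors used HISAT2 2.0.4 for alignment to mm10 and featureCounts 1.6.3 to obtain counts. The deposited tables hold these raw counts, with no normalisation, 1 table for the 12 cultured and 1 for the 6 sorted libraries. How multi-mapping reads were treated is not given in the sources used here.

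Tests used edgeR 4.0.16 in R 4.3.3, with filterByExpr at a minimum count of 10 (13169 genes in culture, 14605 in sorted cells), TMM scaling, quasi-likelihood F-tests and Benjamini-Hochberg adjustment over all genes tested (threshold 0.05). A single model with 4 group means covered the 12 cultured libraries, and a separate one the sorted libraries. Intervals are 95% intervals of the fit. The paper gives 3 mice per group, but the labels do not tie libraries to mice, so p-values measure the spread between libraries, which may be technical. Positions, transcript lengths and promoters come from GRCm38.p6 annotation; 24032 of 24421 symbols matched with a length.

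Whether replicate numbers pair libraries was checked by correlating, between groups, how same-numbered libraries deviate from their group means. This was over 0.1 in all 3 pairs for wt/wt between weeks alone (0.24, 0.41 and 0.37), and this pairing is a hint from the data. Between wt/wt and Δ/Δ at week 4 it was 0.87, 0.35 and -0.15 for replicates 1, 2 and 3. Why the replicate 1 libraries of week 4 deviated together was not tested.

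Named genes were, by rule, the members with the most extreme fold changes in each comparison, the stalk, X-linked and paralog members with their partners, Rpl5, Rpl11, Rps6 and Rps19, the members with the highest and lowest levels, and up to 4 genes per pathway list. Members and lists were chosen with earlier results of these data known. Values of 2 genes the rule would name are not reported here, though counts include them.

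Each fit was repeated with RLE factors, with library sizes alone, with TMM factors from other genes, with other filters, with DESeq2 1.42.0, with a replicate block, on only the libraries compared, with a transcript length offset and with each library left out. The scripts were tested on simulated data.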

Additional observations from a re-analysis of the deposited data

Results flagged for a closer look

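Rpl39l was singled out because its genotype difference changed between the weeks by a test of that change itself: the difference at week 4 exceeded that at week 1 by 3.24 on the log2 scale (SE 0.39, adjusted p = 2.6e-04, edgeR, Benjamini-Hochberg). The difference was -0.54 at week 1 and 2.70 at week 4. In wt/wt the gene was at 8.39 to 11.3 CPM at week 1 and 0.448 to 1.30 CPM at week 4. In the cells labelled Δ/Δ it was at 5.86 to 7.36 CPM and 4.45 to 5.71 CPM. The call was kept in all 21 alternatives run, between 2.96 and 3.87 with single libraries left out. Groups here have 3 libraries, so no group was tested for a library far from the others.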

How the results depend on the processing

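Of 28 calls of named members, 19 were kept in every alternative run for them and none reversed. The calls lost in some were Rplp0 and Rpl34 at week 4, Rps26, Rpl32, Rpl13, Rpl4 and Rpl11 over time in wt/wt and Rpsa and Rps3 over time in Δ/Δ (all kept their direction). Single libraries whose removal ended these calls were wt/wt and Δ/Δ week 4 replicates 1 and 2 for Rplp0 (adjusted p 0.056 to 0.14), wt/wt week 4 replicate 1 and Δ/Δ week 4 replicates 2 and 3 for Rpl34 (0.055 to 0.068), wt/wt week 1 replicate 1 and week 4 replicates 1 and 3 for Rps26 (0.11 to 0.28), Rpl32 (0.072 to 0.19) and Rpl13 (0.083 to 0.15), wt/wt week 1 replicate 1 for Rpl11 (0.062), that library and wt/wt week 4 replicate 3 for Rpl4 (0.068 to 0.069), and Δ/Δ week 1 replicates 1 and 3 and week 4 replicates 1 and 2 for Rpsa (0.051 to 0.12) and Rps3 (0.068 to 0.13). Under a stricter filter (10 counts or more per gene in every library), which removes Rpl39l, 2 members differed at week 4 and 0 in the interaction. With the transcript length offset 8 differed at week 4 and 44 over time in Δ/Δ. With only the libraries compared it was 2 at week 4 and 19 over time in wt/wt, and with the replicate block added 14 in wt/wt. The block over all 12 libraries gave 25 over time in wt/wt and 24 in Δ/Δ, 3 at week 4, 1 in the interaction and 0 at week 1, and 0 in sorted cells; beyond wt/wt over time the numbers are not shown to pair libraries. The cause was not tested. For these settings, and for those below with libraries left out, the share of all genes called is not given. Counts of members under them can move with the calls of all genes and are not read as particular to the members.

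With single libraries left out, the number called was 13 to 44 over time in wt/wt, 12 to 32 over time in Δ/Δ, 2 to 4 at week 4, 1 in the interaction, and 0 at week 1 and in sorted cells. The medians over members then ran from -0.74 to -0.34, -0.64 to -0.38, -0.31 to -0.10, -0.17 to 0.22, -0.47 to -0.04 and -0.68 to -0.22 in the same order. The lowest wt/wt count was without week 1 replicate 1; the Δ/Δ count fell to 16 or fewer without week 1 replicates 1 and 3 and week 4 replicates 1 and 2. At week 4, 2 were left without wt/wt replicate 1 or Δ/Δ replicate 2.

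Alternatives chosen after seeing the data left out 3 libraries that stand apart (wt/wt replicate 1 of both weeks and Δ/Δ week 4 replicate 1), which gave 14 over time in wt/wt, 34 in Δ/Δ, 4 at week 4, 0 at week 1 and 2 in the interaction, with a wt/wt median of -0.22. The block with only the libraries compared, the length offset with a block, and leaving out megakaryocyte-rich libraries were also chosen then. Scaling to library size alone gave a median of 0.07 over all genes in sorted cells, with the members at -0.33. Rps27 and Rpl30, at under 1 CPM, had standard errors of 0.42 to 0.47 on the log2 scale for genotype and for time in culture.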
